A study of Mus musculus with 8 samples.

Results

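S100 proteins are small calcium-binding proteins of vertebrates, built from EF-hand motifs, most of which act as dimers. Calcium opens a binding surface through which they engage partners such as annexins, myosin and cytoskeletal proteins inside the cell. Several members are also released from damaged or activated cells and act on the receptors Ager (RAGE) and Tlr4; S100a8 and S100a9 together form calprotectin, an abundant protein of neutrophils and of freshly recruited monocytes. In the kidney, injured tubule cells, fibroblasts and infiltrating phagocytes are all known sources of members of the family. The members described here are the 10 genes S100a1, S100a4, S100a5, S100a6, S100a8, S100a9, S100a10, S100a11, S100a13 and S100a16, found by matching the Ensembl identifiers of the deposited table to these symbols, among 34450 genes in all.

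The study measured messenger RNA in post-injury mouse kidneys 3 days after ischaemia-reperfusion injury (IRI), a surgical model of acute kidney injury in which the blood supply is stopped and then restored. All mice were of strain C57BL/6J, aged 8 weeks. In 4 libraries (numbered 1 to 4) the mice had been exposed to hypoxia before IRI, and in 4 libraries (5 to 8) to normoxia before IRI. Both groups were injured and neither is an uninjured kidney, so the comparison concerns the effect of the earlier oxygen exposure within injured tissue. The labels give neither the hypoxia regimen nor the duration of ischaemia, and do not say whether each library is a separate mouse. The p-values therefore rest on the variation from library to library, part of which may be technical.

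Values are FPKM (fragments scaled to transcript length and to the library's mapped fragments), which allow levels of different genes to be set beside each other. Depth, estimated from the FPKM values and annotated gene lengths, ran between 8850000 and 14600000 fragments, with 1800000 to 8800000 of them in protein-coding genes. Ribosomal RNA genes took 21.55% to 67.41% of the estimated fragments in the hypoxia libraries and 13.55% to 72.51% in the normoxia libraries. The library least like the rest was normoxia 5, whose Spearman correlations with the other libraries across tested genes averaged 0.633, against 0.767 to 0.832 for the other 7, and its genes with under 1000 exonic bases were shifted up (median 0.33 on the log2 scale) while those over 4000 bases were shifted down (median -0.55). Normoxia library 7 was shifted up at both lengths, by medians of 0.63 and 0.76, while hypoxia library 3 (medians -0.55 and -0.40) and hypoxia library 4 (medians -0.54 and -0.35) were shifted down at both. Hypoxia library 1 (medians 0.11 and 0.20) and hypoxia library 2 (0.12 and 0.41) were shifted up at both. Normoxia library 8 (medians -0.34 and -0.19) was shifted down at both. Hypoxia libraries 1 and 2 resembled each other (0.924), as did 3 and 4 (0.921), more than the pairs across them (0.833 to 0.853). The titles of hypoxia libraries 1 and 2 are spelled differently from those of the other 6 libraries. The tissue's own markers were present, with the proximal tubule phosphate transporter Slc34a1 at 281 ± 87.1 FPKM in hypoxia kidneys and 178.4 ± 124.5 FPKM in normoxia kidneys (SD, n = 4 each).

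Across the family, 2 of the 9 members that could be tested were lower in kidneys exposed to hypoxia, S100a6 and S100a4, and none was higher. S100a6 averaged 12.3 ± 10.9 FPKM in hypoxia kidneys and 136.2 ± 87.8 FPKM in normoxia kidneys, and S100a4 averaged 3.21 ± 2.65 FPKM in hypoxia kidneys and 27.1 ± 18.03 FPKM in normoxia kidneys (SD, n = 4 each). The call is limma's adjusted p under 0.05 on log2(FPKM + 0.5), among 14444 genes with a mean of at least 0.5 FPKM, of which 0.602% were lower after hypoxia and 0.305% were higher. All 9 tested members had a log2 change below 0, against 61.0% of all tested genes, and their median log2 change was -1.77, against -0.14 over all tested genes. At an unadjusted p under 0.05, 5 of the 9 were lower, against 6.84% of all genes. In 2 of the 9, S100a6 and S100a4, every hypoxia library lay below every normoxia library, against 3.06% of all genes; with TMM scaling, which sets most genes level between libraries (trimmed mean of M-values), it was the same count of 2, against 5.64%. The TMM fit also called 2 members lower and none higher, against 1.2% and 1.18% of all genes. The 10th member, S100a5, was listed at 0 in all 8 libraries. The other 7 members did not pass, with adjusted p-values between 0.181 and 0.982.

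**Figure D1:**
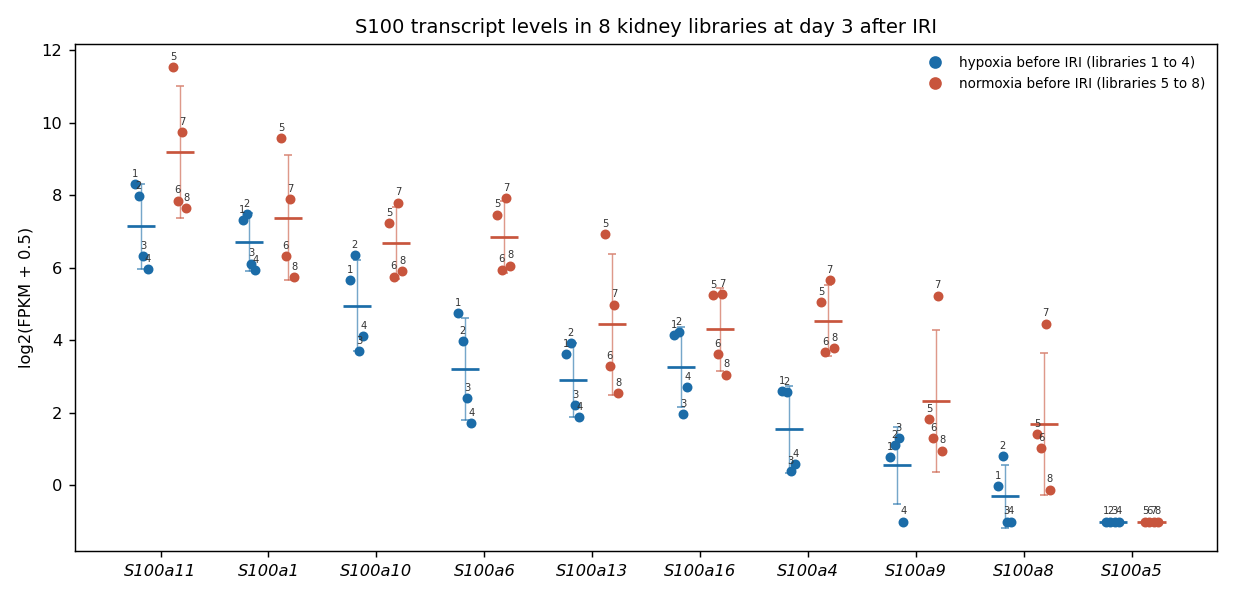
Level of each of the 10 S100 members as log2(FPKM + 0.5) in every library, hypoxia left and normoxia right for each gene, with points numbered by library, a line at the mean and a bar for the SD. Of the tested members S100a6 and S100a4 have groups that do not overlap; in S100a6 the highest hypoxia library has 26.46 FPKM and the lowest normoxia library has 61.27 FPKM.

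The genes lie on mouse chromosome 3 (GRCm38) in a cluster of calcium-binding and skin-barrier genes. S100a1 (90511034 to 90514392, minus strand) and S100a13 (90514435 to 90524581, plus strand) are divergent neighbours with 42 bases between them. S100a16 (90537254 to 90543151), S100a4 (90603771 to 90606045), S100a5 (90608523 to 90611780), S100a6 (90612882 to 90624181) and S100a8 (90668978 to 90670035) follow on the plus strand, and S100a9 (90692632 to 90695721) on the minus strand. S100a11 (93520488 to 93526287) and S100a10 (93555080 to 93564643), both on the plus strand, lie 2.82 Mb further along.

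The sequences before the start sites of S100a6 and S100a4, the pair that were lower, and of S100a11, the member with the highest level, are shown because they bear on whether the members share upstream motifs. They are from RefSeq (GRCm38.p6), plus strand, and capitals mark matches to the motifs searched.
S100a6 chr3:90612644-90612881: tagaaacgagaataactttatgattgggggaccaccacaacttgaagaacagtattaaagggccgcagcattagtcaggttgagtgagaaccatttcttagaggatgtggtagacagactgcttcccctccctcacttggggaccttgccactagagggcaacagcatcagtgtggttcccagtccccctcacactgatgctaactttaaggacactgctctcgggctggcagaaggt
S100a4 chr3:90603520-90603769: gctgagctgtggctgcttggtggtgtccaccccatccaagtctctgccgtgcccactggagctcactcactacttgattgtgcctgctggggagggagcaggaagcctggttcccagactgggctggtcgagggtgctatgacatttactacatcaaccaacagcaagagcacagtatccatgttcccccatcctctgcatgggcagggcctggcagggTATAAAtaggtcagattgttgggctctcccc
S100a11 chr3:93520246-93520487: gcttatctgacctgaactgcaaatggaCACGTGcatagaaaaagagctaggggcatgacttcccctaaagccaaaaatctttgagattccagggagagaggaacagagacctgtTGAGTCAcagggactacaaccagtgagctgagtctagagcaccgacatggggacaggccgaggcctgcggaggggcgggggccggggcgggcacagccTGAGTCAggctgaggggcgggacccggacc
The motifs searched on both strands, in windows from 250 bases before to 50 bases after each start, were the AP-1 motif TGANTCA, the hypoxia response core ACGTG, the C/EBP motif TTNNGCAA, the TATA box TATAAA and the kappaB motif. S100a4 holds a TATA box 31 bases before its start, as 13.62% of all 32851 mouse promoters in the table hold one. S100a11 holds the AP-1 motif at 136 and at 38 bases before its start, a motif found in 7.81% of promoters, and the ACGTG core inside a palindrome that gives a match on each strand, found in 19.62%. In the stretch printed, S100a6 holds none of these letters, and its only match in the window is an ACGTG core after the start. The promoter table matched 9 of the 10 members with 10 entries, S100a16 having a pair of starts; S100a10 was not analysed here for motifs. Of these 10 entries, AP-1 was in 2 (S100a11 and a second start of S100a16), ACGTG in 3 (S100a11, S100a5 and S100a6), the TATA box in 3 (S100a4, S100a8 and S100a9), the C/EBP motif in 1 (S100a9, found in 10.8% of promoters) and kappaB in none (4.51% of promoters). A match of letters is a description, and no match says only that these letters are not in the window.

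**Figure D2:**
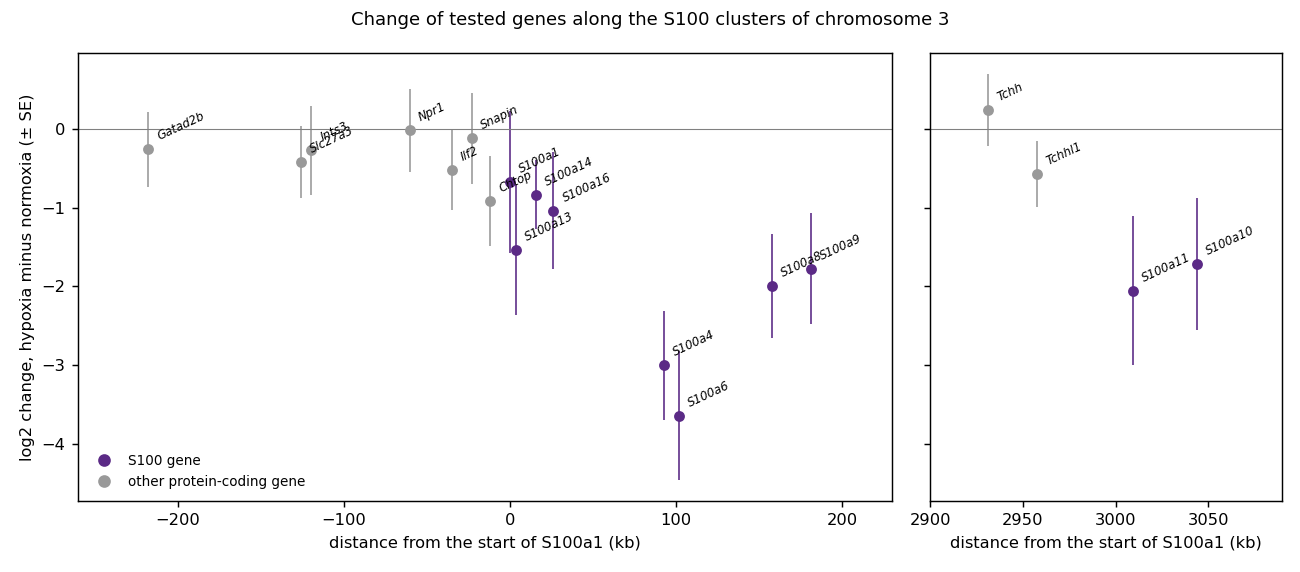
Log2 change (hypoxia minus normoxia, bars ± SE) of tested genes against their distance in kb from the start of S100a1, in a pair of panels for the separate stretches of the chromosome. The S100 genes, S100a14 included, sit between -3.64 and -0.67, and the 9 other protein-coding genes between -0.92 and 0.24.

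The neighbours on the chromosome did not pass the test. Within 200 kb of a member, 9 other protein-coding genes could be tested, none was called in either direction, and their median log2 change was -0.27. The nearest of them to S100a1, Chtop, had a log2 change of -0.92 ± 0.57 (SE, adjusted p 0.74, limma).

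S100a6 (ENSMUSG00000001025), also called calcyclin, is found in fibroblasts and epithelial cells, is linked to proliferation and binds annexins and the ubiquitin-ligase adaptor Cacybp. Its level was 26.46, 15.21, 4.76 and 2.79 FPKM in the 4 hypoxia libraries, against 176.42, 61.27, 240.97 and 66.19 FPKM in the 4 normoxia libraries. Every hypoxia library was below every normoxia library, with libraries 3 and 4 the lowest of the hypoxia group and 5 and 7 the highest of the normoxia group. The log2 change was -3.64 ± 0.82 (SE, 95% confidence interval -5.33 to -1.94, adjusted p 0.032, limma with Benjamini-Hochberg adjustment). With TMM scaling, S100a6 stood at 21.9, 11.2, 7.24 and 4.12 in hypoxia libraries, against 193.0, 61.0, 131.1 and 81.8 in normoxia libraries, and the log2 change was -3.44 (adjusted p 0.0237). The call was lost when hypoxia library 3 (adjusted p 0.0724), hypoxia library 4 (0.0982), normoxia library 5 (0.0911) or normoxia library 7 (0.208) was left out, the last leaving 0.0284% of all genes called lower, and also when no filter on low values was applied (0.374). The log2 change stayed between -4.79 and -2.79 in all 25 alternatives. Those that alter only the filter, the variance trend, the robust variance or the threshold cannot move a log2 change.

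S100a4 (ENSMUSG00000001020), also known as fibroblast-specific protein 1, binds non-muscle myosin and is expressed by fibroblasts and by macrophages and other leukocytes. It had 5.54, 5.46, 0.82 and 1.01 FPKM in the hypoxia libraries, against 32.69, 12.22, 50.14 and 13.26 FPKM in the normoxia libraries. The estimated fragments behind these values were 39, 46, 4 and 5 in hypoxia libraries and 269, 70, 427 and 72 in normoxia libraries. The values of hypoxia libraries 3 and 4 thus rest on few fragments. Again no hypoxia library reached the lowest normoxia library, and the libraries fell in much the same order as for S100a6. The log2 change was -3.00 ± 0.69 (SE, 95% confidence interval -4.43 to -1.57, adjusted p 0.0327, limma), and -2.85 with TMM scaling (adjusted p 0.025). Leaving out hypoxia library 3 (adjusted p 0.112), hypoxia library 4 (0.0858), normoxia library 5 (0.103) or normoxia library 7 (0.214) ended this call too, as did using no filter (0.39) and no variance trend (0.0848). Another annotated gene on the same strand, the predicted gene Gm42674 (90601904 to 90605885), overlaps S100a4 and was not analysed here, so the share of fragments from it cannot be told apart from S100a4.

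S100a6 and S100a4 were also close to each other in their pattern over the libraries. Among 3934 named genes with a mean of at least 5 FPKM, S100a4 had the smallest root mean square difference from S100a6 (0.439 on the centred log2 scale over 8 libraries). Next came Akr1b8 (0.449), an aldo-keto reductase, Pf4 (0.480), a chemokine of platelets and macrophages, Tmsb10 (0.522), an actin-binding peptide, and Phgdh (0.533), an enzyme of serine synthesis. Within each of the 8 libraries all genes share its depth and composition, so the likeness is a description without a test. Among pairs of members the smallest difference was that of S100a11 and S100a13 (0.353), ahead of S100a4 and S100a6 (0.439), S100a10 and S100a16 (0.461) and the divergent neighbours S100a1 and S100a13 (0.473).

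Within each group the members largely shared their order of libraries. In the hypoxia group 8 of 9 tested members had lower values in libraries 3 and 4 than in 1 and 2, with S100a9 the exception. In the normoxia group libraries 5 and 7 held the top ranks in all 9 members. The share of all tested genes with these orders was not computed, here or with TMM scaling. The counts therefore cannot be read as a trait of the family. Whole libraries were shifted too, hypoxia 1 and 2 up and hypoxia 3 and 4 down, among short and among long genes. TMM scaling gave the same counts, 8 of 9 and 9 of 9. The ribosomal RNA share ran the opposite way, at 40.95% and 21.55% in hypoxia 1 and 2 beside 66.3% and 67.41% in hypoxia 3 and 4, and at 13.55% and 28.0% in normoxia 5 and 7 beside 62.95% and 72.51% in normoxia 6 and 8; its part in the levels was not tested.

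S100a10 and S100a11 are the members best known as annexin partners. S100a10 (p11) does not bind calcium and forms a tetramer with annexin A2 at the plasma membrane, where it takes part in plasminogen activation and channel trafficking. It had 50.20, 81.11, 12.47 and 16.91 FPKM in the hypoxia libraries, against 150.65, 53.43, 221.28 and 59.85 FPKM in the normoxia libraries. Hypoxia library 2 lay above normoxia libraries 6 and 8, so the groups overlapped, and the log2 change of -1.72 ± 0.84 (SE, 95% confidence interval -3.45 to 0.02) did not pass (adjusted p 0.544, limma). Its partner Anxa2 had 31.20, 22.55, 6.28 and 6.22 FPKM in hypoxia libraries, against 124.91, 46.66, 167.86 and 46.39 FPKM in normoxia libraries. The Anxa2 groups did not overlap, but its log2 change of -2.61 ± 0.80 (SE) did not pass as deposited (adjusted p 0.134) and did with TMM scaling (-2.40, adjusted p 0.0385, limma). Within a library, the log2 ratio of S100a10 to Anxa2 was 1.20 ± 0.50 in hypoxia kidneys and 0.31 ± 0.09 in normoxia kidneys (SD, n = 4 each), higher in every hypoxia library (exact two-sided permutation p 0.0286, the smallest that 70 assignments allow; 0.0629 adjusted over 11 ratios).

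S100a11 (calgizzarin), a partner of annexin A1 that is abundant in epithelia, had the highest level of the family in both groups. It had 315.88, 250.07, 79.89 and 61.67 FPKM in the hypoxia libraries, against 2967.14, 230.23, 852.10 and 200.42 FPKM in the normoxia libraries. The normoxia group spread widely, library 5 holding 2967.14 FPKM, and normoxia libraries 6 and 8 were below hypoxia libraries 1 and 2. The log2 change was -2.05 ± 0.94 (SE, adjusted p 0.485, limma), and -0.97 with TMM scaling and normoxia library 5 left out (adjusted p 0.234). Anxa1 averaged 2.31 ± 1.65 FPKM in hypoxia kidneys and 5.11 ± 4.22 FPKM in normoxia kidneys (SD, n = 4 each; log2 change -0.88, adjusted p 0.787, limma).

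S100a8 and S100a9, the calprotectin subunits, were low in these kidneys. S100a8 had 0.49, 1.24, 0 and 0 FPKM in the hypoxia libraries, against 2.15, 1.54, 21.51 and 0.42 FPKM in the normoxia libraries. S100a9 had 1.22, 1.67, 1.98 and 0 FPKM in the hypoxia libraries, against 3.04, 1.95, 37.06 and 1.44 FPKM in the normoxia libraries. Both were far higher in normoxia library 7 than in any other library, and the groups overlapped in both genes. The log2 changes, on the log2(FPKM + 0.5) scale that understates changes of low genes, were -2.0 ± 0.66 for S100a8 (adjusted p 0.181) and -1.77 ± 0.71 for S100a9 (SE, adjusted p 0.346, limma). The estimated numbers of fragments behind S100a8 were only 4, 12, 0 and 0 in hypoxia libraries and 21, 11, 218 and 3 in normoxia libraries. S100a8 passed in 5 of the 25 alternatives. The smallest adjusted p (limma) was 0.00221, for hypoxia libraries 3 and 4 alone against normoxia, where 2.41% of all genes were lower. In the other passing alternatives from 1.09% (common sum of FPKM) to 8.98% (library weights) of all genes were lower. Without normoxia library 7 the S100a8 log2 change was -1.08 (adjusted p 0.713, limma). The genes nearest to S100a8 in pattern, among 10322 with a mean of at least 1 FPKM, were the granulocyte colony-stimulating factor receptor Csf3r (0.594), the myeloid receptor Cd300c2 (0.642), the calcification inhibitor Mgp (0.671), Slfn1 (0.671) and S100a9 (0.674).

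Several members are made by phagocytes, fibroblasts or injured tubule cells, and in bulk tissue fewer cells of a type and less RNA per cell cannot be told apart. Of 14 neutrophil markers in the table only 3 reached the level needed for a test, and none passed; 13 of the 14 were at 0 in at least 1 library, Elane was at 0 in all 8, and Ly6g was not analysed here. Csf3r had 0.41, 0.27, 0.09 and 0.06 FPKM in the hypoxia libraries, against 0.87, 0.88, 10.05 and 0.72 FPKM in the normoxia libraries, without overlap (adjusted p 0.159, limma). Il1r2 had 0.04, 0.15, 0 and 0.1 FPKM in the hypoxia libraries, against 0.82, 0.73, 2.31 and 0.05 FPKM in the normoxia libraries, with overlap (adjusted p 0.294, limma). The summed level of the neutrophil list was 0.16 to 4.99 FPKM in hypoxia libraries and 3.51 to 23.64 FPKM in normoxia libraries, highest in library 7. Of all tested genes 0.602% were lower, 0.305% were higher and 61.0% had a log2 change below 0, with a median of -0.14. Among 16 tested monocyte and macrophage markers 2 were lower and none higher, with all 16 log2 changes below 0 and a median of -1.72. Those 2 were the Fc receptor Fcgr1 (0.27 ± 0.22 FPKM in hypoxia kidneys and 3.48 ± 2.58 FPKM in normoxia kidneys, adjusted p 0.0266) and the chitinase-like Chil3 (0.31 ± 0.35 FPKM in hypoxia kidneys and 6.43 ± 7.45 FPKM in normoxia kidneys; SD, n = 4 each, adjusted p 0.0198, limma). Without normoxia library 5 the list had 1 call, Mrc1 (adjusted p 0.0306, limma), and both Fcgr1 (0.0911) and Chil3 (0.0818) lost theirs. In that fit 0.347% of all genes were lower. Without normoxia library 7, where 0.0284% of all genes were lower, the list had 0 calls. With TMM scaling the list had 5, where 1.2% of all genes were lower. Its summed level was 24.9 to 118.5 FPKM in hypoxia libraries and 149.1 to 844.7 FPKM in normoxia libraries. The pan-macrophage marker Adgre1 averaged 1.03 ± 0.68 FPKM in hypoxia kidneys and 3.86 ± 2.28 FPKM in normoxia kidneys (SD, n = 4 each, adjusted p 0.181, limma).

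**Figure D3:**
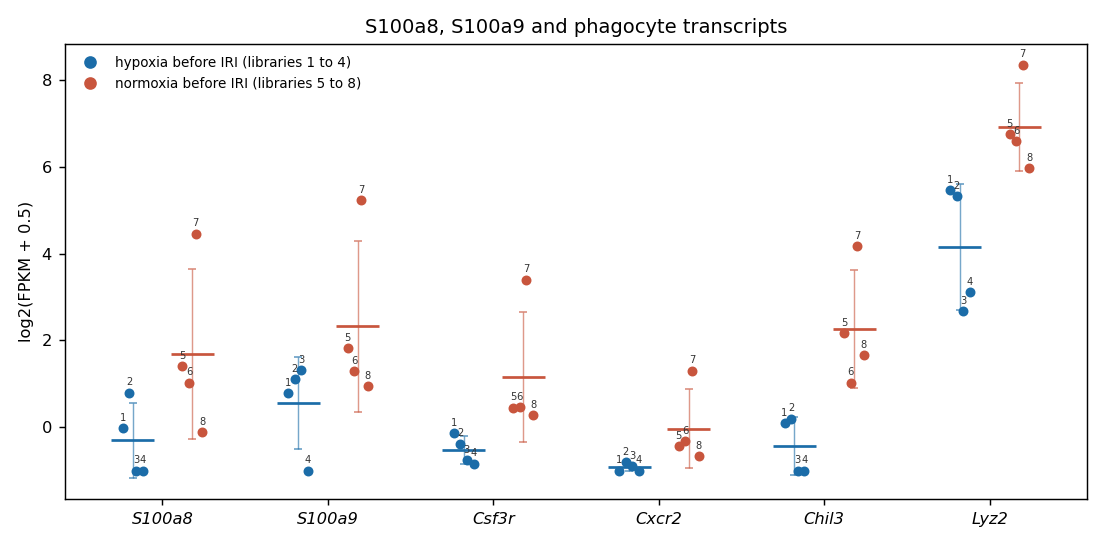
Levels as log2(FPKM + 0.5) of S100a8, S100a9, the neutrophil genes Csf3r and Cxcr2 and the macrophage genes Chil3 and Lyz2 in every library, hypoxia left and normoxia right for each gene, points numbered by library, with lines at the means and bars for the SD. S100a8 and S100a9 peak in normoxia library 7, at 21.51 and 37.06 FPKM, as does Csf3r at 10.05 FPKM. Cxcr2 did not reach the level needed for a test.

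Genes of fibroblasts and of injured tubule cells were mostly lower in value too. Of 13 fibroblast and myofibroblast markers tested none passed as deposited, and 11 had a log2 change below 0, against 61.0% of all tested genes. The summed level of the 13 was 40.8 to 97.3 FPKM in hypoxia libraries and 179.2 to 549.3 FPKM in normoxia libraries. The 2 with the smallest p were Thy1 (log2 change -1.81, adjusted p 0.0687) and Vim (-2.63, adjusted p 0.0875), and Col1a1 averaged 7.42 ± 3.26 FPKM in hypoxia kidneys and 46.8 ± 30.04 FPKM in normoxia kidneys (SD, n = 4 each, adjusted p 0.0882, limma). Pdgfra (log2 change 0.15) and Dcn (0.34) were the 2 with a log2 change above 0, and neither passed. With TMM scaling 5 of the 13 passed, all lower, as did 1.2% of all genes. Of 12 injured-tubule markers 4 were lower and none higher, against 0.602% and 0.305% of all tested genes. The 4 were the repair transcription factor Sox9, the protease inhibitor Timp1, the hyaluronan receptor Cd44 and the keratin Krt20. All 4 calls of that list ended when normoxia library 7 was left out, a fit in which only 0.0284% of all genes were lower. Its summed level was 279.8 to 2568 FPKM in hypoxia libraries and 1746 to 5166 FPKM in normoxia libraries, and its best-known member, the injury marker Havcr1 (Kim-1), averaged 36.6 ± 45.5 FPKM in hypoxia kidneys and 232.3 ± 167.1 FPKM in normoxia kidneys (SD, n = 4 each, adjusted p 0.0855, limma). Of 10 proximal tubule markers none passed and 9 had a log2 change above 0, led by the water channel Aqp1 (2.32, adjusted p 0.238) and Kap (2.05, adjusted p 0.507). With TMM scaling none passed, and with TMM scaling and normoxia library 5 left out 5 of the 10 were higher, as were 4.43% of all genes. The part of these cell types in the levels of S100a4, S100a6 and the other members was not tested.

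S100a13, S100a16 and S100a1 are widely expressed intracellular members. S100a13, which takes part in the release of Fgf1 and interleukin 1 alpha from stressed cells, had 11.74, 14.58, 4.15 and 3.16 FPKM in the hypoxia libraries, against 121.66, 9.28, 31.08 and 5.36 FPKM in the normoxia libraries. Library 5 held most of the normoxia level, the groups overlapped, and the log2 change of -1.53 ± 0.83 (SE, adjusted p 0.628, limma) was -0.42 with TMM scaling and library 5 left out. S100a16 had 17.28, 18.16, 3.41 and 6.06 FPKM in the hypoxia libraries, against 37.55, 11.84, 38.21 and 7.79 FPKM in the normoxia libraries. Both normoxia libraries 6 and 8 lay below hypoxia libraries 1 and 2, and the log2 change was -1.04 ± 0.74 (SE, adjusted p 0.821, limma).

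S100a1, best known from heart and skeletal muscle where it binds the ryanodine receptor, was the second most abundant member. It had 159.31, 178.02, 68.89 and 60.46 FPKM in the hypoxia libraries, against 760.44, 79.34, 238.23 and 52.97 FPKM in the normoxia libraries. The groups overlapped across most of their range, the lowest value of all being in normoxia library 8. Its log2 change of -0.67 ± 0.90 (SE, adjusted p 0.982, limma) was the smallest in the family and did not hold its sign, at 0.36 with TMM scaling and normoxia library 5 left out. S100a5, known from olfactory neurons, lies between S100a4 and S100a6 and was listed at 0 in all 8 libraries.

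**Figure D4:**
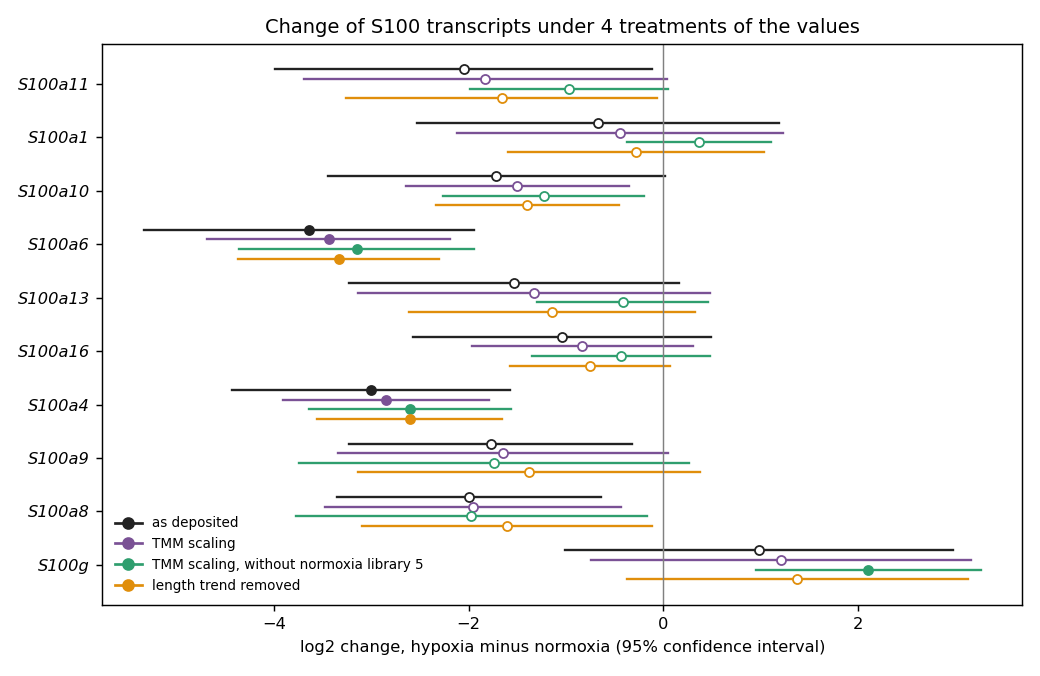
Log2 change, hypoxia minus normoxia on the log2(FPKM + 0.5) scale, of each tested S100 member and of S100g with its 95% confidence interval, as deposited, with TMM scaling, with TMM scaling and normoxia library 5 left out, and with the trend on gene length removed; filled circles have an adjusted p under 0.05. S100a6 (-3.64) and S100a4 (-3.00) are filled as deposited, and S100a1 (-0.67) is nearest to 0.

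Ratios of one member to another were taken within each library, as log2((FPKM + 0.5)/(FPKM + 0.5)). For abundant members such a ratio hardly depends on how libraries are scaled to each other, but for S100a8, S100a9 and the lowest S100a4 values the added 0.5 FPKM ties it to the scale. Taken against S100a1, the log2 ratio of S100a6 was -3.50 ± 0.69 in hypoxia kidneys and -0.53 ± 1.08 in normoxia kidneys (SD, n = 4 each), a difference of -2.97. The ratio of S100a4 to S100a1 was -5.17 ± 0.44 in hypoxia kidneys and -2.84 ± 1.15 in normoxia kidneys, that of S100a11 was 0.43 ± 0.42 in hypoxia kidneys and 1.81 ± 0.19 in normoxia kidneys, and that of S100a13 was -3.81 ± 0.22 in hypoxia kidneys and -2.94 ± 0.23 in normoxia kidneys (SD, n = 4 each). In each of these 4 ratios every hypoxia library was below every normoxia library, with an exact two-sided permutation p of 0.0286, the smallest the design allows. Adjusted over all 11 ratios computed the value was 0.0629, so none passed. For S100a10, S100a16, S100a8 and S100a9 against S100a1 the differences were -1.05, -0.37, -1.33 and -1.10, with exact permutation p-values of 0.143, 0.429, 0.229 and 0.343. S100a8 relative to S100a9 differed by -0.22 (exact permutation p 0.8), and S100a11 relative to Anxa1 by -1.17 (exact permutation p 0.6).

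**Figure D5:**
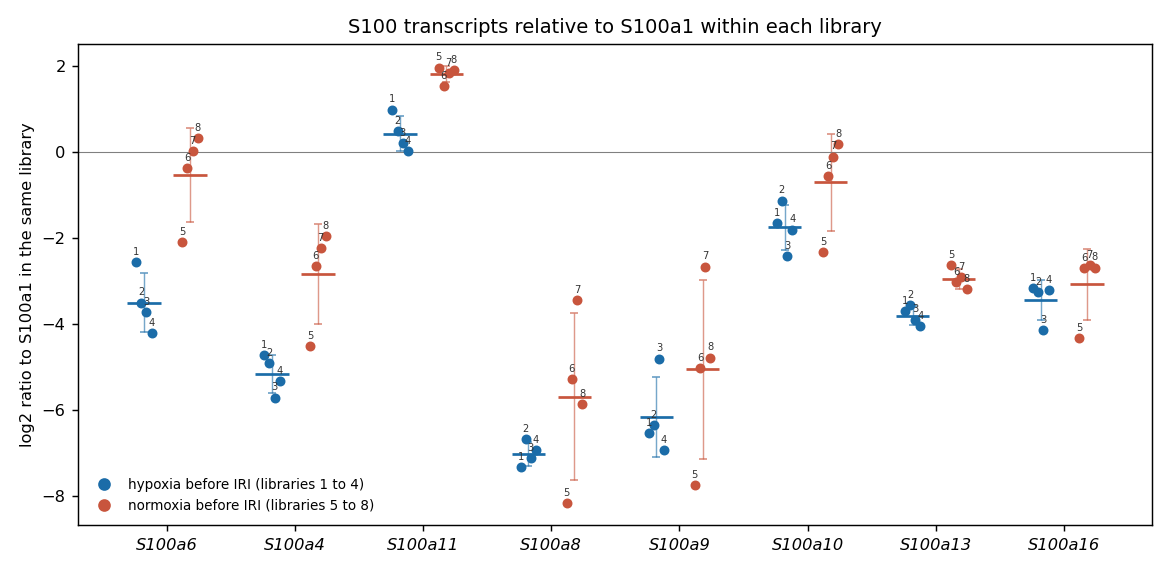
Log2 ratio of each member to S100a1 within each library, hypoxia left and normoxia right, points numbered by library, with lines at the means and bars for the SD. S100a6, S100a4, S100a11 and S100a13 have all 4 hypoxia libraries below all 4 normoxia libraries.

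The make-up of the family was read from the summed levels. The summed level of the 10 members was 588.1, 565.5, 176.4 and 152.1 FPKM in the hypoxia libraries, against 4252, 461.1, 1731 and 407.7 FPKM in the normoxia libraries. S100a11 took 40.6% to 53.7% of that sum in hypoxia libraries and 49.2% to 69.8% in normoxia libraries. S100a1 took 27.1% to 39.8% in hypoxia libraries and 12.99% to 17.89% in normoxia libraries, without overlap. These shares were not tested, and they depend on the levels of the other members, above all S100a11. The ratio of S100a11 to S100a1 did not pass (adjusted p 0.0629, exact permutation test), and S100a1 itself was not higher (log2 change -0.67). Ordered by mean log2 level, hypoxia kidneys ran S100a11, S100a1, S100a10, S100a16, S100a6, S100a13, S100a4, S100a9 and S100a8, and normoxia kidneys S100a11, S100a1, S100a6, S100a10, S100a4, S100a13, S100a16, S100a9 and S100a8. Some neighbours in these orders did not differ beyond their spread: S100a16 exceeded S100a6 in 2 of 4 hypoxia libraries (mean difference 0.05 ± 0.73, SD, log2), and S100a1 exceeded S100a6 in 2 of 4 normoxia libraries (0.53 ± 1.08). S100a13 exceeded S100a16 in only 1 of 4 normoxia libraries (0.14 ± 1.03), and S100a4 exceeded S100a13 in 3 of 4 (0.10 ± 1.37). In hypoxia kidneys S100a6 and S100a13 (0.31 ± 0.57), S100a4 and S100a9 (0.99 ± 1.27) and S100a9 and S100a8 (0.86 ± 1.02) also differed by less than their SD. S100a6 exceeded S100a10 in 4 of 4 normoxia libraries, by 0.17 ± 0.05.

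Outside the 10 members, 6 other S100 genes of the list were in the table and 2 could be tested. S100g, the calcium shuttle calbindin-D9k of distal tubule and intestine, had 358.11, 509.67, 99.06 and 92.87 FPKM in the hypoxia libraries, against 563.17, 50.84, 162.92 and 23.03 FPKM in the normoxia libraries. It did not pass as deposited (log2 change 0.98, adjusted p 0.921, limma), and it passed as higher with TMM scaling and normoxia library 5 left out (2.11, adjusted p 0.0396), as did 4.43% of all genes. S100a14 averaged 0.21 ± 0.19 FPKM in hypoxia kidneys and 0.90 ± 0.75 FPKM in normoxia kidneys (SD, n = 4 each, adjusted p 0.598, limma). S100a3, S100a7a, S100b and S100z did not reach the level needed for a test, and S100z was at 0 in all 8 libraries.

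Of 11 listed partners and receptors none passed in either direction as deposited. Their log2 changes were below 0 in 9, against 61.0% of all tested genes, with a median of -0.65, against -0.14. The receptor Ager had 0.51, 0.92, 0.06 and 0.08 FPKM in the hypoxia libraries, against 2.67, 0.43, 0.94 and 0.17 FPKM in the normoxia libraries, with overlap (log2 change -0.65, adjusted p 0.82, limma). With TMM scaling Anxa2 was lower and the scavenger receptor Cd36 was higher (log2 change 1.95, adjusted p 0.0489, limma), as were 1.2% and 1.18% of all genes. Among 28 tested EF-hand genes outside the family, 2 passed as deposited, both higher after hypoxia, against 0.305% of all tested genes. Of the 28, 21 had a log2 change below 0, against 61.0% of all tested genes. Their median was -0.57, against -0.14 over all tested genes. Lower calls appeared in this list under some alternatives, among them 2 with the length trend removed, 4 with TMM scaling and normoxia library 5 left out, and 5 with library weights. In those fits 1.74%, 4.22% and 8.98% of all genes were lower, against 0.602% as deposited. Calb1 (calbindin-D28k of the distal nephron) had 36.95, 34.21, 15.55 and 17.32 FPKM in the hypoxia libraries, against 4.14, 1.57, 4.53 and 0.92 FPKM in the normoxia libraries (log2 change 3.10 ± 0.64, SE, adjusted p 0.0198, limma). Pvalb (parvalbumin, found in the distal convoluted tubule) had 6.88, 5.60, 5.16 and 4.89 FPKM in the hypoxia libraries, against 1.42, 0, 0 and 0 FPKM in the normoxia libraries (3.12 ± 0.49, SE, adjusted p 0.00289, limma). In both genes every hypoxia library was above every normoxia library, as in 1.86% of all tested genes. Without normoxia library 7 the list had 1 call, where 0.0284% of all genes were lower and 0.0782% were higher. With no filter the list had 0 calls, where no gene was called.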

How the data were processed

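The data are 8 libraries of kidney RNA. RNA was taken from snap-frozen tissue in Trizol and sequenced as stranded poly(A) TruSeq libraries, per the labels' protocols. The deposited FPKM values were made by the authors; the submitters' processing notes list HISAT2, StringTie and edgeR, with no version, and the genome build is not given in the sources used here. All 34450 gene identifiers matched GENCODE M21 (GRCm38), which gave symbols, coordinates and exonic lengths.

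Because FPKM are not counts, limma 3.58.1 (R 4.3.3; eBayes with a variance trend) was run on log2(FPKM + 0.5) for the 14444 genes with a mean of at least 0.5 FPKM, with Benjamini-Hochberg adjustment over all of them and a threshold of 0.05; the code was checked on simulated data. Changes are hypoxia minus normoxia. Ratios within libraries were compared with an exact two-sided permutation test over 70 assignments (Python 3.11.15, SciPy 1.17.1), adjusted over 11 ratios. Fragments per library and per gene were estimated from FPKM and exonic length, so depth is approximate, and intervals are not given for it. FPKM divides by all fragments, so a library rich in ribosomal RNA has lower values elsewhere; TMM scaling and a loess fit on gene length (span 0.5) were run as alternatives, among 25.

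The members and gene lists were chosen with earlier results of these data known. Genes named are all members and other S100 genes, and called partners with Anxa1, Anxa2 and Ager. In each other list they are up to 4 called genes or else the 2 with the smallest p. Csf3r, Adgre1, Col1a1, Slc34a1 and Havcr1 are given as levels, and the 5 genes most like S100a6 and S100a8 are named. Chtop, Cd36, Cxcr2, Elane, Lyz2, Mrc1, Pdgfra, Dcn and Spp1 were named after their values were seen. A listed symbol with 2 identifiers was left out.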

Additional observations from a re-analysis of the deposited data

Results flagged for a closer look

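In S100a8 the highest normoxia library, library 7, lay far from the other 3, at 21.51 FPKM. In S100a9 the same library lay apart, at 37.06 FPKM. Both gaps, taken on FPKM, exceeded Dixon's 95% critical value for 4 samples. Chance alone passes it in about 1 of 20 groups if values are normally distributed, which 4 FPKM values cannot show. The rule was not applied on the log2 scale used for the tests, and more than these genes were screened, so the flag is only a description. Csf3r (10.05 FPKM) and the summed neutrophil markers, which include Csf3r (23.64 FPKM), were also highest in library 7. That library was shifted up in general, by medians of 0.63 for short and 0.76 for long genes on the log2 scale. The part of neutrophils in the S100a8 and S100a9 levels was not tested.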

How the results depend on the processing

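Of the S100 members, 2 were called lower. The count was 0 with no filter on low values, where no gene of 30982 was called in either direction, 1 with no variance trend (S100a6), and 0 with normoxia 5 and 7 both left out, an alternative chosen after seeing the data. Leaving out a replicate gave 0 to 3 lower members, and the share of all genes called lower moved too, at 0.0284% without normoxia 7, 0.347% without normoxia 5, 0.302% without hypoxia 3 and 0.371% without hypoxia 4 (0 members each), and 1.43% without normoxia 6 and 1.63% without normoxia 8 (3 members each). No member was called higher in any of the 25 alternatives. S100a6 passed in 19 of the 25 and S100a4 in 18, with log2 changes of -2.79 and -2.18 at their smallest, both with normoxia 5 and 7 left out. The alternative with an adjusted p of 0.10 is the main fit at a looser threshold, so both passed there by construction. S100a1 was below 0 in 22 of 26 fits, which include the main fit and alternatives that cannot move a log2 change. With TMM scaling the median over all genes was 0.03, against -0.14 as deposited, and that over the members was -1.65; calls over all genes came to 173 lower and 170 higher, against 87 and 44 as deposited. No paired analysis was possible because the groups share no replicate number. Of the tested members, the fewest fragments in all stood behind S100a8 and S100a9, and 4 libraries a group limit every test.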

Other observations

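Markers of cell types that the text has not described gave no calls in either direction. Of 6 endothelial markers tested none passed, and the 2 with the smallest p were Kdr (2.65 ± 0.64 FPKM in hypoxia kidneys and 1.74 ± 0.93 FPKM in normoxia kidneys, SD, n = 4 each; adjusted p 0.884, limma) and Tek (adjusted p 0.903, limma). Of 7 urothelial markers tested none passed; Krt15 had an adjusted p of 0.568 and Krt5 of 0.762 (limma), and the summed level was 1.48 to 33.65 FPKM in hypoxia libraries and 1.76 to 56.58 FPKM in normoxia libraries. Of 3 fat cell markers tested none passed, with Fabp4 at 8.85 ± 3.61 FPKM in hypoxia kidneys and 5.24 ± 5.15 FPKM in normoxia kidneys (SD, n = 4 each; adjusted p 0.741, limma) and Cidec at an adjusted p of 0.835. None of 6 lymphocyte markers reached the level needed for a test, and their sum was 0.10 to 0.51 FPKM in hypoxia libraries and 0.03 to 6.25 FPKM in normoxia libraries.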
